A study of Homo sapiens with 4 samples.

Results

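Ribosome assembly factors are the nucleolar proteins that cut, modify and fold the precursor ribosomal RNA and escort the unfinished subunits out of the nucleus. The group described here consists of 53 genes, chosen by symbol, with earlier results of these data known. It covers factors of the small and the large ribosomal subunit and the abundant nucleolar chaperones. Other ribosome biogenesis genes lie outside it and are compared below. Each of the 53 symbols stood in 1 row of the expression table, and 53 of 53 averaged 1 FPKM or more, out of 11147 genes at that level and 25268 symbols in all. FPKM is the number of fragments counted for a gene, scaled to transcript length and to the mapped fragments of the library, so levels of different genes can be compared per length, and an increase in the total RNA of a cell is not seen on this scale.

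The RNA-Seq data came from SK-MEL-28, an established human melanoma cell line. Cells had been transduced with lentivirus to carry either the empty pTRIPZ vector (vector cells) or a MYC gene driven by a Tet-inducible promoter (MYC-inducible cells), and both lines had been selected with geneticin, also named G418. Each line was left without doxycycline (Dox), the drug that switches on the Tet promoter, or was given Dox for 54 h. There were 4 libraries, 1 per condition, so that no difference has a replicate check, no test between conditions was possible and no p-value is given, and the errors stated below are counting errors only.

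The libraries held approximately 35100000 to 42100000 fragments, as estimated from the smallest values in the table, and the FPKM values of a library summed to between 692146 and 715495. The 8 melanocytic marker genes were at 14.2 FPKM or more in every library, with PMEL the highest, while 12 of 13 markers of leukocytes, endothelium, epithelium and fibroblasts were below 1 FPKM in each. The melanocytic markers summed to between 8433 and 8578 FPKM in 3 libraries and to 4666 FPKM in the MYC-inducible cells with Dox. This lower sum was in the same library as the higher levels described below. PMEL alone went from 6178 to 3394 FPKM with Dox in the MYC-inducible cells. The log2 changes of the 8 markers there ran from -1.39 for S100B to -0.30 for SOX10. The other markers summed to between 2.29 and 2.96 FPKM in those 3 libraries and to 4.10 FPKM in the MYC-inducible cells with Dox. In each library 4 to 6 of the 13 were at 0. The marker above 1 FPKM was LYZ in those 3 libraries and EPCAM in the MYC-inducible cells with Dox. In the MYC-inducible cells EPCAM went from 0.726 to 2.71 FPKM with Dox, and LYZ from 1.75 to 0.997 FPKM. The part of these shifts in the results was not tested. MYC itself stood at 58.3 FPKM in untreated vector cells and 54.8 FPKM with Dox, against 76.5 and 87.1 FPKM in the MYC-inducible cells, a log2 change with Dox of -0.09 and 0.19. These FPKM values thus put the untreated MYC-inducible cells already above the vector cells in MYC. The change with Dox lay below the upper quartile over all genes, 0.21. The study itself reported higher MYC mRNA by RT-PCR, and higher MYC transcriptional activity in a reporter assay, with Dox in the MYC-inducible cells. How reads from the introduced MYC gene were counted is not given in the sources used here. The size of the MYC induction was therefore not tested with these values. The library of the MYC-inducible cells with Dox is called the Myc_Dox library here, by its label.

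A ribosome begins as 1 long RNA precursor made by RNA polymerase I in the nucleolus. The small subunit (SSU) processome, a large particle assembled around the U3 snoRNP, folds and cleaves the part that becomes the small subunit, and a second series of factors builds the large subunit from the remaining part. MYC is known as a transcription factor that, with its partner MAX, binds E-boxes, of which CACGTG is the canonical form, and genes of ribosome assembly are among its best known targets.

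The promoters of the group were therefore searched for CACGTG, which reads the same on both strands. RefSeq promoter windows (GRCh38.p14), which run from 250 bases before an annotated transcription start to 50 bases after it, were at hand for 48 of the 53 genes, as 54 windows, since 6 genes have several starts. The genes without a window were BOP1, DCAF13, RRP12, RRP1B and RRS1. CACGTG stood in at least 1 window of 23 of the 48 genes (47.9%), against 13.2% of the 8381 tested genes in the same table and 8.77% of all 27305 genes there. The sites lay close to the start. In 21 of the 48 genes (43.8%) a site lay within 50 bases on either side of the start, against 5.61% of the tested genes. In 13 of the 48 genes (27.1%) it began within the first 25 transcribed bases, against 1.09% of the tested genes. Another form, CACGCG, searched on both strands, stood in 22.9% of the 48 genes and 23.6% of the tested genes. These matches describe letters in a window and not binding. Since genes with several starts have more chances of a match, the share was also taken over windows, and was 44.4% of the group's windows and 9.74% of those of the tested genes.

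For 12 genes of different steps of assembly, the site of the gene nearest to its start is given here. Each is printed as 30 bases on the strand of the gene, with the E-box in capitals. The 12 genes were picked for having such a site, so the shared E-box follows from the choice. Among genes with a site that could be printed at this length, they are those with the largest log2 changes with Dox in the MYC-inducible cells, and UTP18 with the smallest. RCL1, WDR43, NAT10, LTV1, BYSL, NOC3L and GNL2, with changes in between, are not printed. The printed genes therefore cannot relate the E-box to the size of the change. Their flanks were not compared.
MYBBP1A: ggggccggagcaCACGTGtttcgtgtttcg
UTP20: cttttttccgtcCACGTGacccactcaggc
RRP9: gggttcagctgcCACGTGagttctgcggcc
PWP2: tgagctgcggcaCACGTGcgacggccgtga
MRTO4: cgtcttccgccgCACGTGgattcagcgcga
NOP14: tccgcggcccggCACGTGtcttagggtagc
GNL3: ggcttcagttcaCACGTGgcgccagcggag
PNO1: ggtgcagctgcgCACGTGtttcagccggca
IMP4: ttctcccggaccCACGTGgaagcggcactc
PES1: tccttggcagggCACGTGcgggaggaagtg
NOL6: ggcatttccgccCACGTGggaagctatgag
UTP18: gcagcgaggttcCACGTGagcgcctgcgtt

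On GRCh38.p14 these stretches lie at chr17:4555340-4555369 (minus strand) for MYBBP1A, chr12:101280083-101280112 (plus) for UTP20, chr3:51941892-51941921 (minus) for RRP9 and chr21:44107388-44107417 (plus) for PWP2. Those of MRTO4, NOP14, GNL3 and PNO1 lie at chr1:19251807-19251836 (plus), chr4:2963374-2963403 (minus), chr3:52686026-52686055 (plus) and chr2:68157885-68157914 (plus). Those of IMP4, PES1, NOL6 and UTP18 lie at chr2:130342900-130342929 (plus), chr22:30591880-30591909 (minus), chr9:33473894-33473923 (minus) and chr17:51260538-51260567 (plus). Counting the first transcribed base as 1 and the base before it as -1, the E-box began at 28 in MYBBP1A, -10 in UTP20, -5 in RRP9, 2 in PWP2, 15 in MRTO4, 16 in NOP14 and IMP4, 7 in GNL3, 10 in PNO1, 14 in PES1 and NOL6, and 5 in UTP18.

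The wider context is shown for UTP20, whose E-box lies just before the start. These are the 100 bases up to the start, chr12:101280005-101280104 on GRCh38.p14, plus strand, with the E-box in capitals.
UTP20: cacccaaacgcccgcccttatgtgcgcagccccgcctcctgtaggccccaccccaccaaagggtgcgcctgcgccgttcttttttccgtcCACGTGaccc

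**Figure D1:**
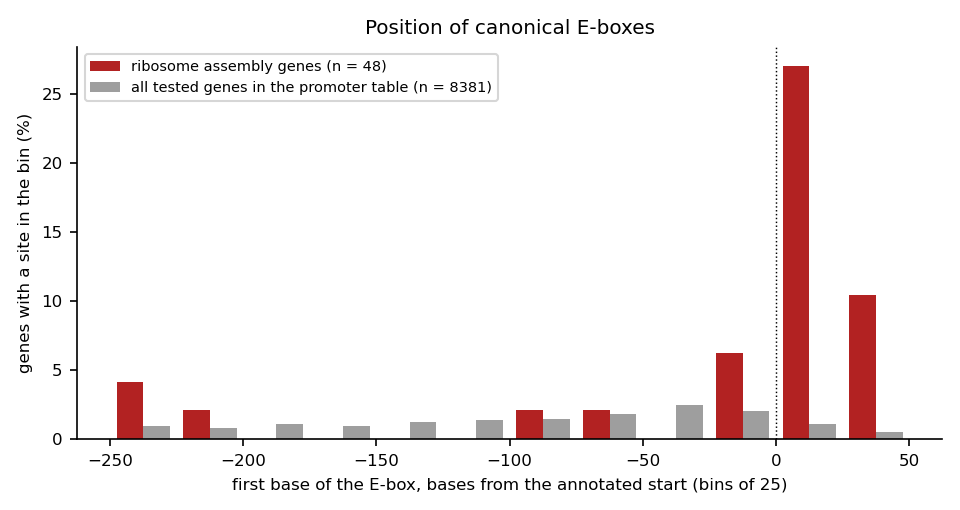
Percent of genes (vertical axis) with a canonical E-box whose first base lies in each 25-base bin along the promoter (horizontal axis, bases from the annotated start, dotted line at the start). Red bars are the 48 ribosome assembly genes with a promoter window and grey bars the 8381 tested genes. The first bin after the start holds 27.1% of the assembly genes and 1.09% of the tested genes.

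In the MYC-inducible cells 53 of 53 genes had a higher level with Dox than without it. Over all genes tested, 46.8% were higher. Of the 53 genes, 38 were at least 1.5-fold higher, a threshold that 5.90% of all genes tested passed, and 5 were at least 2-fold higher, which 1.05% of all genes passed. None was at least 1.5-fold lower, as were 8.85% of all genes. The median log2 change of the group was 0.69, which is 1.61-fold, and that of all genes tested was -0.03. Changes are differences of log2(FPKM + 0.1) between 2 libraries, and the offset of 0.1 slightly understates the change of the lowest genes. The changes of the 53 genes ran from 0.19 for RIOK2 to 1.19 for LYAR, and 43 of them lay between 0.4 and 1.0. The counting error of a change was 0.0352 at the median and at most 0.0666. In bulk RNA a change in the number of cells that make a transcript and a change in the transcript per cell cannot be told apart.

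Dox alone did not move the group by as much. In the vector cells 40 of 53 genes were higher with Dox, against 54.2% of all genes, and the median log2 change was 0.04, with a range from -0.05 for NMD3 and NOC3L to 0.22 for NOB1. None of the 53 was 1.5-fold higher there or 1.5-fold lower, thresholds that 0.709% and 0.440% of all genes passed. The change with Dox was larger in the MYC-inducible cells than in the vector cells for 53 of 53 genes, with a median difference of 0.61. Without Dox the lines were close. The log2 difference of the MYC-inducible from the vector cells had a median of 0.01 and ran from -0.18 for PPAN to 0.25 for LTV1, and none of the 53 reached 1.5-fold in either direction, as 0.879% of all genes did.

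The choice of the reference library did not decide the direction. In 53 of 53 genes the Myc_Dox library was the highest of the 4 libraries, as it was in 40.2% of all genes, and in 50 of 53 it was at least 25% above the highest of the other 3, as in 13.4% of all genes. The exceptions were RIOK2, TBL3 and UTP18. The ratio to the highest of the other 3 libraries had a median of 1.52 over the 53 genes and ran from 1.14 to 2.28. The other 3 libraries differed among themselves by a factor of 1.08 at the median, and of 1.21 at most, in PPAN. Set against the vector cells with Dox, which shares the Myc_Dox library with the comparison above, 34 of 53 genes were at least 1.5-fold higher in the MYC-inducible cells, as were 6.50% of all genes. Of the 38 genes past the threshold before, 30 were past it with this reference too. The 8 others were GRWD1, HEATR1, IMP4, NOC2L, NPM1, PES1, PPAN and RCL1, and LTV1, NOC3L, UTP6 and WDR12 passed it with this reference only.

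Together the 53 genes held 0.644% and 0.645% of the FPKM sum in the vector cells without and with Dox, 0.626% in the MYC-inducible cells without Dox and 0.967% with Dox. The median gene of the group had between 25.4 and 27.4 FPKM in the first 3 libraries and 44.5 FPKM in the Myc_Dox library. NPM1 alone made up 43.6% to 48.8% of the group's summed level and NCL 9.65% to 12.1%. Without NPM1 and NCL the sum was 1857 to 1976 FPKM in 3 libraries and 3065 FPKM in the MYC-inducible cells with Dox, so the higher share did not rest on the abundant genes. Across the 53 genes the change had no clear relation to the starting level in the MYC-inducible cells (Spearman's rho -0.05) or to transcript length (rho -0.06), where the genes share both libraries and their depth.

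**Figure D2:**
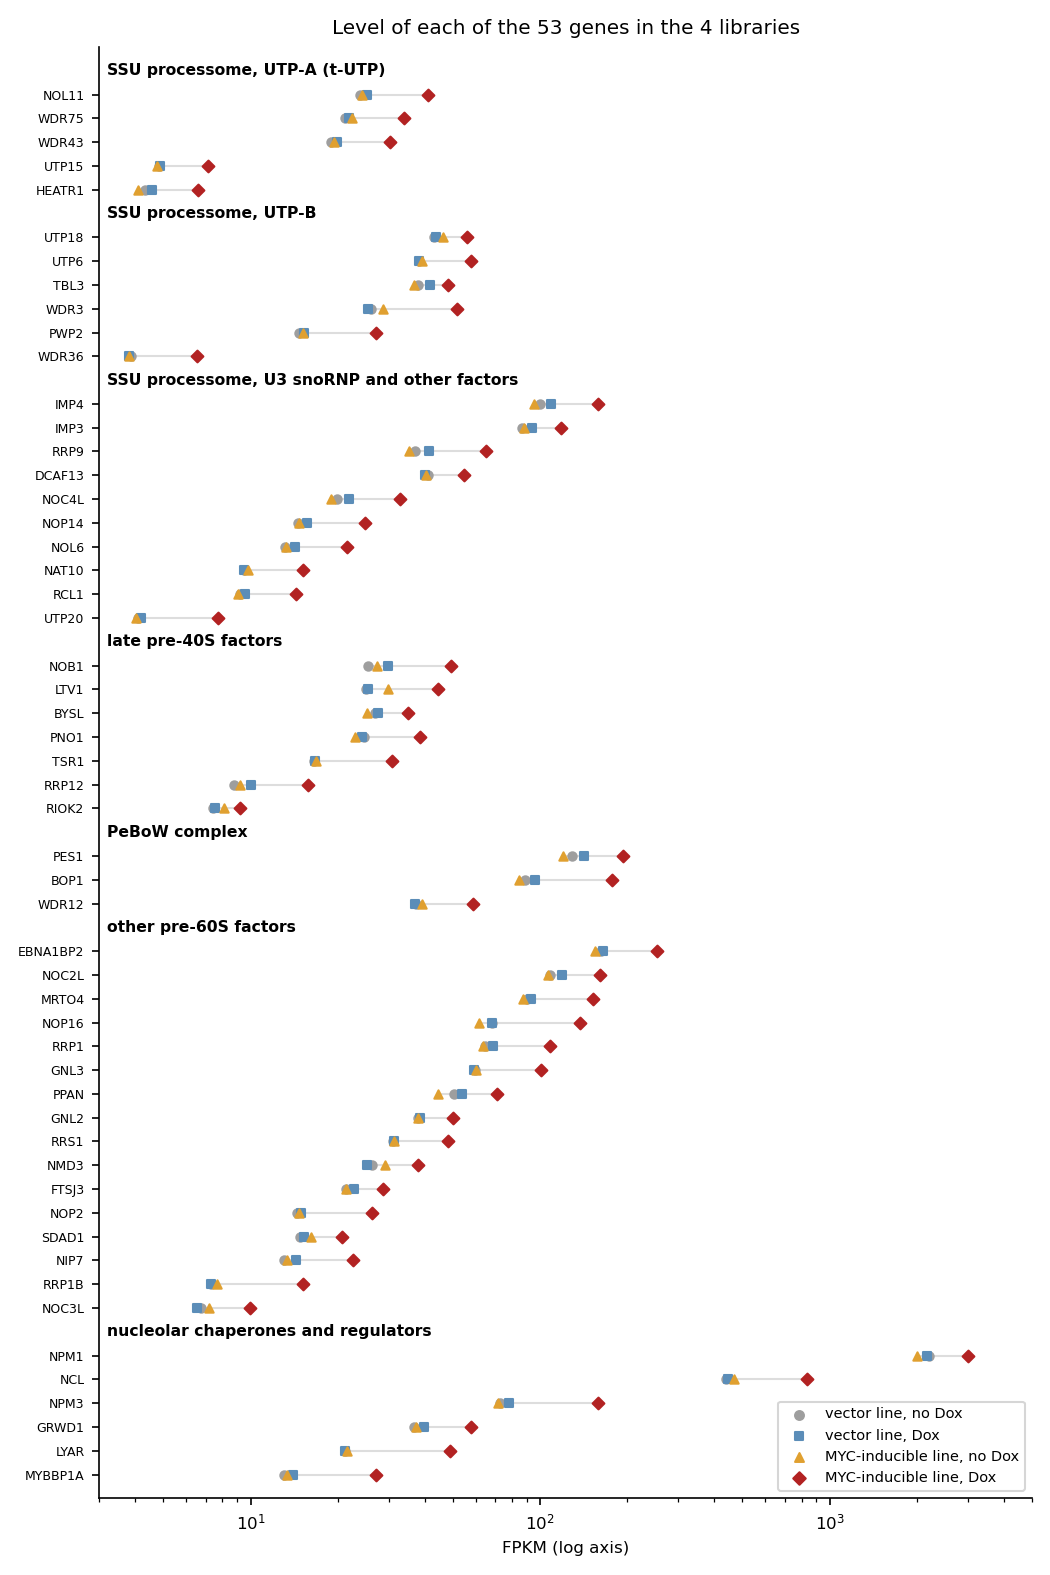
FPKM of the 53 genes (rows, grouped by role and ordered by mean) in the 4 libraries on a log axis. Grey circles and blue squares are the vector cells without and with Dox, orange triangles and red diamonds the MYC-inducible cells without and with Dox. The first 3 symbols overlap in most rows and the red diamond lies to their right in each.

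Within the SSU processome, the UTP-A complex, also called t-UTP, joins the precursor RNA first and is needed for its transcription. Of its genes, 5 belong to the group described here, and these were higher in the Myc_Dox library by log2 changes of 0.58 to 0.75, with a median of 0.63. This was the narrowest range of the role groups of more than 3 genes, and 4 of 5 were past 1.5-fold. CIRH1A, a further gene of this complex, is in the list of other biogenesis genes compared below and changed by 0.53, short of 1.5-fold. The role groups hold only genes of the group described here, and further factors of the same steps are in the lists compared below. For this and the following role groups, the share to set beside such counts is the 5.90% of all genes tested past 1.5-fold. NOL11 had 23.9 and 25.3 FPKM in the vector cells without and with Dox and 24.4 and 41.1 FPKM in the MYC-inducible cells. WDR75 went from 22.5 to 33.9 FPKM in the MYC-inducible cells, WDR43 from 19.4 to 30.2 FPKM and HEATR1, the largest protein of the complex, from 4.07 to 6.57 FPKM. UTP15 stood at the edge of the threshold, with 4.84, 4.86, 4.74 and 7.14 FPKM in the same order of libraries and a fold of 1.496.

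The UTP-B complex, which binds next and holds the U3 snoRNP in place, was less uniform. Of its 6 genes 3 were past 1.5-fold, and the median log2 change was 0.66. WDR3 had 26.1 and 25.5 FPKM in the vector cells and 28.8 and 51.6 FPKM in the MYC-inducible cells, a log2 change of 0.84, and PWP2 went from 15.2 to 27.1 FPKM, a change of 0.83. WDR36, at 3.85, 3.81, 3.80 and 6.55 FPKM, was the lowest of all 53 genes and changed by 0.77. UTP6 stayed just short of the threshold, at 39.1 and 57.7 FPKM. TBL3 had 37.8, 41.7, 36.7 and 48.0 FPKM, so that its level in the vector cells with Dox came near that of the Myc_Dox library and its change of 0.39 was 0.20 with that reference. UTP18 had 42.9, 43.8, 46.1 and 55.8 FPKM, a log2 change of 0.27, the smallest of the group's processome genes.

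The U3 snoRNP and other processome factors on the group's list comprised 10 genes, with 8 past 1.5-fold and a median log2 change of 0.71. They are not the rest of the processome. Further factors are in the lists compared below, among them UTP3 at 0.17, MPHOSPH10 at 0.40 and NOL10 at 0.67, and snoRNP core proteins such as FBL at 0.81. UTP20, a very large scaffold protein, had 4.09 and 4.20 FPKM in the vector cells and 4.03 and 7.70 FPKM in the MYC-inducible cells, with a change of 0.92 and an error of 0.05. RRP9, a protein specific to the U3 snoRNP, had at most 41.3 FPKM in the vector cells, and 35.3 and 64.9 FPKM in the MYC-inducible cells without and with Dox, a change of 0.88 against 0.16 in the vector cells. IMP3 and IMP4 are partners in the complex that recruits U3, and they differed in size of change. IMP4 had 99.6, 109, 95.6 and 159 FPKM in the 4 libraries, a log2 change of 0.73, while IMP3 had 86.5, 93.5, 87.7 and 118 FPKM, a change of 0.43. DCAF13 also stayed below the threshold, at 40.4 and 54.5 FPKM. NOC4L and its partner NOP14 changed by 0.80 and 0.74, and NOL6, RCL1 and the RNA acetyltransferase NAT10 by 0.69, 0.66 and 0.62.

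Late pre-40S factors act on the nearly finished small subunit and accompany it to the cytoplasm. Of the 7 listed genes 4 were past 1.5-fold, with a median log2 change of 0.74, and this role group held both a large change and the smallest of all 53. TSR1, a GTPase-like protein of the late particle, had 16.6 and 16.7 FPKM in the vector cells and 16.9 and 30.9 FPKM in the MYC-inducible cells, a log2 change of 0.87. NOB1, the endonuclease that makes the final cut at the end of the small subunit RNA, had 25.5, 29.7, 27.4 and 49.3 FPKM, a change of 0.84, and its change of 0.22 in the vector cells was the largest there. Its partner PNO1 changed by 0.74 and RRP12 by 0.78. LTV1 and BYSL were just below or below the threshold, at 29.9 and 44.5 FPKM and at 25.3 and 35.1 FPKM in the MYC-inducible cells. RIOK2, an atypical kinase of the last steps, had 7.42, 7.53, 8.07 and 9.20 FPKM, with a change of 0.19 and an error of 0.06.

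The PeBoW complex (PES1, BOP1 and WDR12) is required for processing of the large subunit RNA. PES1 had 129 and 142 FPKM in the vector cells and 120 and 194 FPKM in the MYC-inducible cells, a log2 change of 0.69. Against Dox-treated vector cells it was 0.44, below 1.5-fold. WDR12 had 37.3, 36.9, 39.1 and 58.4 FPKM, a change of 0.58, just under 1.5-fold. BOP1 had 88.7, 96.3, 84.3 and 177 FPKM, a change of 1.07, the largest of the 3. The BOP1 level per PES1 was therefore 0.677 to 0.703 in the first 3 libraries and 0.914 in the Myc_Dox library, while that of WDR12 per PES1 was 0.302 there, within the range of 0.259 to 0.326 of the others.

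The other pre-60S factors were the largest role group, with 16 genes, 11 of them past 1.5-fold and a median log2 change of 0.69. NOP16, a gene whose splicing the study followed in these cells, is a nucleolar protein of the early large subunit. By quantitative RT-PCR in the MYC-inducible cells, the study also reported that MYC raised the NOP16 variant that includes the alternatively spliced exon. In the FPKM values NOP16 had 68.2 and 68.0 FPKM in the vector cells and 61.4 and 137 FPKM in the MYC-inducible cells. Its log2 change was 1.15, with an error of 0.04, and its change in the vector cells was 0.00. NOP16 lies on chromosome 5 of GRCh37 from 175810949 to 175815928 on the minus strand, where ARL10 and HIGD2A overlap it. RRP1B had 7.33 FPKM in the vector cells without and with Dox and 7.63 and 15.1 FPKM in the MYC-inducible cells, a change of 0.98.

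Enzymes and GTPases of the large subunit differed in size of change. The RNA methyltransferase NOP2 changed by 0.83, from 14.7 to 26.2 FPKM, and the methyltransferase FTSJ3 by 0.43, from 21.3 to 28.8 FPKM. Of the related GTPases, GNL3 (nucleostemin) had 59.5, 59.4, 60.2 and 101 FPKM and changed by 0.74, whereas GNL2 had 38.0, 38.3, 37.8 and 49.9 FPKM and changed by 0.40. GNL3 per GNL2 was at most 1.59 in 3 libraries and 2.02 in the Myc_Dox library. NMD3, the export adaptor of the large subunit, had 26.3, 25.3, 29.1 and 37.8 FPKM, a change of 0.38, and was lower with Dox in the vector cells by a log2 change of -0.05. SDAD1 changed least among these genes, by 0.36, from 16.1 to 20.7 FPKM.

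Of the remaining pre-60S genes, EBNA1BP2, the most abundant of them, had 162, 165, 155 and 253 FPKM, a log2 change of 0.71. MRTO4, which holds the place of the ribosomal stalk, changed by 0.80 and NIP7 by 0.75, and RRP1, the paralogue of RRP1B, by 0.77 from 63.4 to 108 FPKM. RRS1 and NOC2L were close to the threshold, at changes of 0.61 and 0.60, and NOC3L was below it, at 0.47. PPAN had 50.4, 53.7, 44.5 and 71.0 FPKM, a change of 0.67 that was 0.40, below 1.5-fold, against Dox-treated vector cells. The read-through gene PPAN-P2RY11 overlaps it, and the 3 libraries other than Myc_Dox differed most among themselves for this gene.

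The nucleolar chaperones and regulators held 3 of the 5 genes past 2-fold, with 6 of 6 past 1.5-fold and a median log2 change of 0.93. LYAR, a zinc finger protein of the nucleolus, had 21.3 and 21.2 FPKM in the vector cells and 21.5 and 48.9 FPKM in the MYC-inducible cells, with a change of 1.19 and an error of 0.05. MYBBP1A, a nucleolar MYB-binding protein, had 13.0 and 13.4 FPKM in the vector and MYC-inducible cells without Dox and 27.2 FPKM in the Myc_Dox library, a change of 1.02. In both genes the first 3 libraries lay within a factor of 1.08 of each other and the Myc_Dox library stood apart. NCL (nucleolin) had 437, 447, 468 and 837 FPKM, a change of 0.84, and GRWD1, a histone and ribosomal protein chaperone, changed by 0.64.

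The nucleoplasmin family members NPM1 and NPM3 differed in level and in change. NPM1 (nucleophosmin), the most abundant gene of the group, had 2208 and 2168 FPKM in the vector cells and 2009 and 3017 FPKM in the MYC-inducible cells, a log2 change of 0.59, the nearest above the 1.5-fold threshold at a fold of 1.501. NPM3 had 72.9, 78.0, 71.5 and 158 FPKM, a change of 1.14. NPM1 per NPM3 was 27.8 to 30.3 in the first 3 libraries and 19.1 in the Myc_Dox library. The annotation names 49 pseudogene copies of NPM1, with which reads could have been shared.

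Past 1.5-fold were 19 of 28 small subunit genes and 13 of 19 large subunit genes of the group, against 5.90% of all genes tested. Factors of both subunits in the comparison list below are not in these counts. Their median log2 changes were 0.68 and 0.69. The difference between these medians was not tested. Genes with an E-box in a promoter window had a median log2 change of 0.71 (n = 23) and those without it 0.67 (n = 25), with ranges of 0.27 to 1.19 and 0.19 to 1.15, and the difference was not tested. NOP16 and NPM3 had no CACGTG in their windows, and that of LYAR began at -64, from 1 of its starts.

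For comparison, 67 other genes of ribosome biogenesis, including the exosome, had a median log2 change of 0.44 with Dox in the MYC-inducible cells and 0.04 in the vector cells. Of these, 63 were higher with Dox, against 46.8% of all genes, and 17 were past 1.5-fold, against the 5.90% of all genes. REXO4, DIMT1 and NLE1 had the largest changes, at 1.06, 0.98 and 0.92. REXO4 went from 21.6 to 45.0 FPKM, while its level in the vector cells was 21.7 and 22.2 FPKM. RIOK3 changed by -0.27, TSR2 by -0.16 and EFL1, listed as EFTUD1, by -0.15, the lowest values of the list, and none of these reached 1.5-fold. RIOK3 is related to RIOK2, which had the smallest change of the 53. The 10 exosome genes EXOSC1 to EXOSC10, which trim the precursor RNA, had a median of 0.35, with 10 of 10 higher and 3 past 1.5-fold. A list of 14 genes of snoRNPs, the particles that modify ribosomal RNA, holds core proteins such as FBL and DKC1 together with assembly and nucleolar factors (NAF1, SHQ1, NOLC1, RUVBL1, RUVBL2 and TCOF1). These 14 genes had a median of 0.77, with 14 of 14 higher and 10 past 1.5-fold. No list was tested against another, and the group and the lists were chosen with earlier results of these data known.

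The positions of the 53 genes on GRCh37 spread over 17 chromosomes. Canonical transcripts ran from 879 to 10004 bases with a median of 2757. In the annotation 26 of the genes are overlapped by another protein-coding gene and 31 by a gene on the opposite strand, and whether strand was used for the FPKM values is not given in the sources used here. Of the 53 genes 6 (GNL3, NCL, NOL11, PPAN, TSR1 and WDR43) hold 14 annotated snoRNA genes on their own strand, and 12 have pseudogene copies by name.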

How the data were processed

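The authors deposited 1 table of FPKM values for 4 RNA-Seq libraries, 1 per condition. The submitters' processing notes name TopHat2 2.0.14, Cufflinks, hg19 and GRCh37, and the annotation is not given in the sources used here. Of 27032 rows, 1 named no gene and was dropped. Rows of 1 symbol were added up (609 symbols), which gave 25268 symbols, and those averaging 1 FPKM or more were kept. Changes were differences of log2(FPKM + 0.1). FPKM values are not counts and each condition has 1 library, so no test was run. Thresholds were 1.5-fold and 2-fold, beside the percent of all genes past them.

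Depth was estimated from values under 0.2 FPKM that were whole multiples of 1 step (multiples to 12, tolerance 1.2%), for 144 genes annotated with 1 transcript, 1500 bases or longer. The quartiles over these genes were 33700000 and 40800000 fragments in the untreated vector cells. Relative depth was 0.897, 1.08 and 1.01 of it in the vector cells with Dox and the MYC-inducible cells without and with Dox. Counting errors follow from this depth and transcript length, and leave out differences between cultures.

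Positions and lengths came from GENCODE release 44 on GRCh37, and promoter sequences from RefSeq on GRCh38.p14, whose coordinates were not combined. The named genes are the members with the largest and smallest change and the highest level in each role group, NOP16, those past 1.5-fold, 3 pairs of related genes, MYC, and the 3 largest changes in each direction among the other biogenesis genes. The remaining members were added. The members and lists were chosen with earlier results of these data known. The calculation was tested on simulated data. Calculations used pandas 2.3.3 and numpy 2.4.6 under Python 3.11.15, and plots matplotlib 3.10.9.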

Additional observations from a re-analysis of the deposited data

Results flagged for a closer look

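NPM1 changed in opposite directions with Dox in the 2 lines, each by more than 2 counting errors. It went from 2208 to 2168 FPKM in the vector cells, a log2 change of -0.03, and from 2009 to 3017 FPKM in the MYC-inducible cells, a log2 change of 0.59, a difference of 0.61. The difference was not tested, as each value rests on 1 library. The vector change lies within 0.107, the robust SD of the vector change over all genes, and 13 of the 53 genes were lower with Dox in the vector cells, NMD3 and NOC3L by more than NPM1, at -0.05 each. Counting errors do not cover differences between cultures, which these data do not measure.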

How the results depend on the processing

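No paired analysis was possible because there was only 1 library in each condition. The alternatives were pseudocounts of 1 and 0.01, 3 other scalings, no filter and a filter at 5 FPKM, a threshold of 2-fold, the mean instead of the median, and Dox-treated vector cells as the reference. Subsets of genes without overlapping genes, snoRNA genes or pseudogene copies were added after seeing the data. Of 103 recalculated summary values 101 moved by less than 0.107, the robust SD of the vector change across the tested genes, or stayed within 1.5 times for a count. The exceptions were the count of genes past the threshold, which was 5 at 2-fold, and the median of the U3 snoRNP and other processome factors, which was 0.59 against Dox-treated vector cells, in which the median of these genes was 0.11 higher than without Dox. The group median lay between 0.63 and 0.75 in the MYC-inducible cells and between 0.02 and 0.06 in the vector cells. Of 318 values for single genes, 22 moved further than 0.107 and 318 stayed above 0. The difference between the lines was not recalculated against Dox-treated vector cells, since it already uses that library. With 14 genes between 1.4-fold and 1.6-fold, the count of 38 depends on the exact threshold. The smallest number of fragments behind a value of a member was approximately 693, for RCL1.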

Other observations

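Canonical E-boxes near the start were also examined over the 8381 tested genes with a promoter window. The 470 tested genes with CACGTG within 50 bases on either side of an annotated start had a median log2 change of 0.06 upon Dox in the MYC-inducible cells, where 54.9% were higher. Of these, 65 (13.8%) were at least 1.5-fold higher, against 5.51% of the 8381 genes. The 21 ribosome assembly genes with such a site are among the 470 and supply 16 of the 65. In the vector cells the median of the 470 genes was 0.03. These shares are descriptions of single libraries, and whether MYC bound any of the sites was not measured here.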
